A study of Mus musculus with 24 samples.

Results

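Transcripts of endothelial and mural cells were followed in microglia prepared from mouse brain. The set has 9 genes of the 20636 listed. Its 6 endothelial members are Cldn5, Ly6c1, Esam, Pecam1, Flt1 and Slco1a4, and its 3 mural members are Vtn, Pdgfrb and Rgs5. All were found by symbol in both TPM tables and both RPKM tables. They were selected on measured values of these libraries, since they come from a longer list of vascular markers already known to be lower in homozygotes at 3 months. The 3-month values of homozygotes are therefore given as a description, and no test of them is used.

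The study removed 3110043O21Rik, which is the C9orf72 gene of the mouse. Homozygous knockout (HOM), heterozygous (HET) and wild-type (WT) mice, all C57BL/6J, were sampled at 3 and 17 months, with 4 animals in each of the 6 groups. Brains were stripped of meninges, dissociated with papain and depleted of myelin with beads, and cells carrying CD11b were then collected magnetically. The labels do not give the way the allele was made, the part of the gene it lacks or the sex of the animals. The headers give each animal a number of its own, and animals are named here by genotype and that number.

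Endothelial cells line the blood vessels, and in brain they form the blood-brain barrier by sealing their contacts with tight junctions and by moving solutes through dedicated transporters. Mural cells, which are the pericytes of capillaries and the smooth muscle cells of larger vessels, lie on the outer face of the endothelium within a shared basement membrane. Endothelial cells release PDGF-B, which keeps pericytes in place through the receptor PDGFRB. CD11b is an integrin of myeloid cells that neither of these cell types is known for, so their transcripts are commonly used as markers of cells or RNA carried along in such a sort. In bulk RNA, fewer cells of a type and less RNA per cell cannot be told apart.

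Promoter stretches are shown because the members moved together and because 1 of them, Ly6c1, has a close copy. RefSeq (GRCm38.p6) listed a promoter for 6 of the 9 members. The 120 bases before the start site are printed for Cldn5 (chr16:18776727-18776846, plus strand) and Rgs5 (chr1:169655381-169655500, plus strand). For Flt1 (chr5:147726047-147726076, minus strand), 30 bases are printed around AGGAAG, the core bound by ETS factors, a family that includes regulators of endothelial genes. For Ly6c1 (chr15:75048853-75048882, minus strand) and Ly6c2 (chr15:75112012-75112041, minus strand), 30 bases are printed around the longest run that the last 120 bases of both share. Capitals mark AGGAAG in Flt1 and that shared run of 20 bases in the Ly6c genes.
Cldn5: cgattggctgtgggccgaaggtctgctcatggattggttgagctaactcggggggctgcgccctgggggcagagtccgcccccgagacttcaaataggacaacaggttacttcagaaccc
Rgs5: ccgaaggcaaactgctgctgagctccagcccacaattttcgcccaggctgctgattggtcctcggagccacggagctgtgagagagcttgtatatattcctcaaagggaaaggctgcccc
Flt1: aggtgccggggtAGGAAGtgggctggggaa
Ly6c1: ttcagGATGCCAGCTGGGAGGAGCTgaagg
Ly6c2: ttcaaGATGCCAGCTGGGAGGAGCTaagaa

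AGGAAG, searched on both strands over the 250 bases before the start, was present for 3 of the 6 members (Flt1, Ly6c1 and Slco1a4), against 32.3% of 27025 genes in the table. A gene with several listed promoters was counted if any of them held the letters, and in Ly6c1 they stood in the second listed promoter and not in the one printed. TATAAA was likewise present for 3 of the 6 (Flt1, Ly6c1 and Vtn), against 14.3% of genes. CCACACCC, a core bound by KLF factors, was present for 0 of the 6, against 3.68% of genes. AGGAAG was absent from the stretch of Cldn5 and from that of Rgs5, so the endothelial and the mural member printed in full do not share these letters. Over 284 aligned columns the first listed promoters of Ly6c1 and Ly6c2 were 57.7% identical. This pair was taken because it had the most identical bases of the pairs of their listed promoters.

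The libraries held 21.8 to 33.8 M alignments at 3 months and 16.7 to 46.4 M at 17 months, and at both ages every homozygous library was deeper than every other. The targeted gene ran from 0.0148 to 0.265 TPM in homozygotes, from 5.45 to 11.4 TPM in heterozygotes and from 13.2 to 25.6 TPM in wild types. Microglial markers prevailed in all libraries, with Cx3cr1, the fractalkine receptor, at 1579 TPM or more in each. By Y-linked transcripts, 2 homozygotes, 4 heterozygotes and 1 wild type were male at 3 months, and 3, 0 and 1 were male at 17 months. The heterozygote HET-8304 stood apart at 3 months. It had the highest summed levels of endothelial, mural, astrocyte, oligodendrocyte, neuron, fibroblast and choroid plexus markers of its age.

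At 3 months the vascular transcripts were lowest in homozygotes, and all members but Pecam1, with Slco1a4 taken in RPKM, scattered most in heterozygotes. Cldn5, the claudin that seals the brain endothelium, stood at 24.8, 14.04, 21.6 and 16.7 TPM in homozygotes, at 59.2, 14.8, 130.3 and 33.7 TPM in heterozygotes, and at 66.2, 38.6, 98.4 and 27.5 TPM in wild types. All 4 homozygotes lay below all 4 wild types, while HET-8303 fell among the homozygotes and HET-8304 above every other animal. Vtn, which encodes vitronectin, a matrix protein made by brain pericytes, stood at 5.17, 6.07, 7.67 and 6.11 TPM in homozygotes, at 11.9, 5.66, 49.5 and 12.02 TPM in heterozygotes, and at 18.9, 11.4, 19.4 and 6.70 TPM in wild types. Here the lowest wild type fell within the homozygous range. Rgs5, a regulator of G protein signalling typical of pericytes, stood at 3.38, 4.38, 5.81 and 5.31 TPM in homozygotes, at 11.6, 4.41, 45.3 and 9.33 TPM in heterozygotes, and at 9.87, 9.61, 18.9 and 6.06 TPM in wild types. Its homozygotes did not overlap the wild types.

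**Figure D1:**
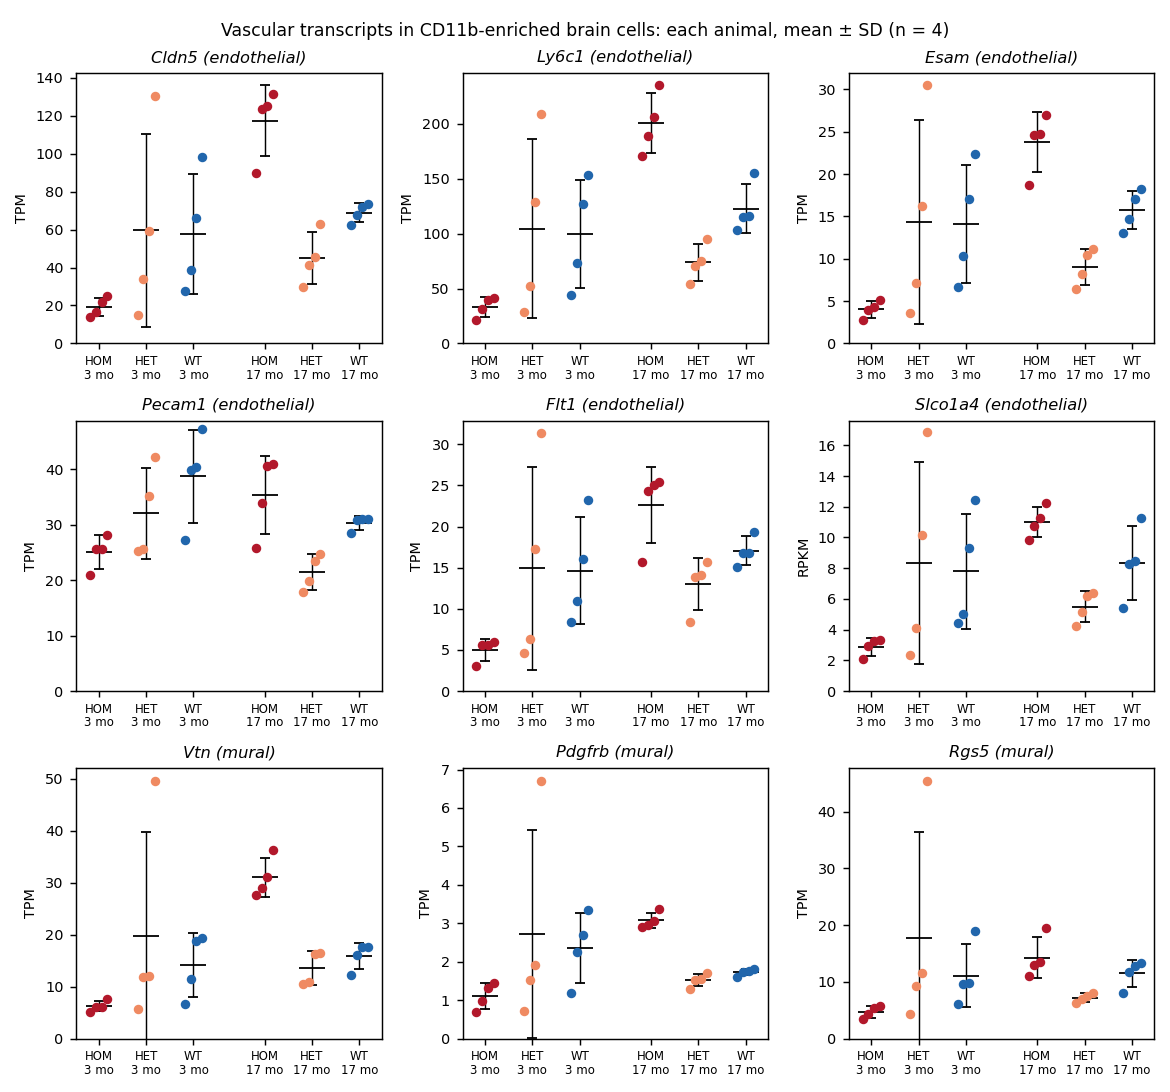
Each panel plots 1 transcript, in TPM (Slco1a4 in RPKM), for the 4 animals of each group as points, with the mean as a bar and the SD as whiskers (cut at 0). At 17 months the homozygotes sit above the heterozygotes in all 9 panels, and at 3 months the heterozygous points spread widest except for Pecam1.

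Homozygous means at 3 months were the lowest in all 9 members, and heterozygous means the highest in 8, with Slco1a4 taken in RPKM. Ly6c1, a GPI-anchored surface protein of brain endothelium, averaged 33.6 ± 9.09 TPM in homozygotes, 105 ± 81.6 TPM in heterozygotes and 99.5 ± 49.3 TPM in wild types (SD, n = 4 each). Esam, an adhesion molecule of endothelial junctions, averaged 4.02 ± 1.01 TPM in homozygotes, 14.3 ± 12.02 TPM in heterozygotes and 14.1 ± 6.97 TPM in wild types. Flt1, the VEGF receptor that acts as a decoy for the ligand, averaged 5.02 ± 1.36 TPM in homozygotes, 14.9 ± 12.4 TPM in heterozygotes and 14.7 ± 6.55 TPM in wild types. In these genes heterozygous and wild-type means differed by less than the spread between animals. Pdgfrb, the receptor for PDGF-B on mural cells, was the lowest of the mural members, at 1.11 ± 0.344 TPM in homozygotes, 2.71 ± 2.70 TPM in heterozygotes and 2.37 ± 0.911 TPM in wild types. The exception was Pecam1, whose mean was 25.1 ± 3.05 TPM in homozygotes, 32.1 ± 8.19 TPM in heterozygotes and 38.7 ± 8.39 TPM in wild types. Pecam1 encodes CD31, an adhesion molecule of endothelium that platelets and leukocytes also carry, and its range across the 12 animals was 2.27-fold, against 9.28-fold for Cldn5 and 13.4-fold for Rgs5.

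On the log2(TPM + 1) scale, which understates the change of low genes such as Pdgfrb, the homozygous minus wild-type difference at 3 months ran from -1.49 ± 0.507 (SE) for Esam to -0.59 ± 0.184 for Pecam1 over the 8 members that passed a mean of 1 TPM. Slco1a4 did not pass it. Homozygotes lay wholly below wild types for 5 of the 8 members, against 15.1% of all genes. In the RPKM tables Flt1 and Slco1a4 kept their homozygotes below the wild types, while Cldn5, Ly6c1, Esam and Rgs5 overlapped. Nothing is read from these counts, because homozygotes at 3 months led to the choice of genes. The homozygous minus heterozygous differences ran from -1.27 (Ly6c1) to -0.32 (Pecam1). Without HET-8304 the endothelial median of that contrast was -0.69 in place of -1.20, and the mural median -0.53 in place of -1.10. Heterozygotes and wild types gave differences of both signs, from -0.27 ± 0.184 (Pecam1) to 0.25 ± 0.514 (Rgs5), with 0 of 8 called by limma (Benjamini-Hochberg over 11587 genes) against 0.0345% of all genes lower and 0.00863% higher, and 0 at an unadjusted p under 0.05 against 21.6%. Their direction depended on single animals, since the endothelial median was -0.68 without HET-8304 and 0.24 without HET-8303.

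Other transcripts moved alongside at 3 months. All 13 astrocyte markers had a negative homozygous minus wild-type difference (median -0.51), with summed levels of 201 to 275 TPM in homozygotes and 261 to 431 TPM in wild types. In heterozygotes they ran from 314 to 709 TPM. Summed choroid plexus and ependyma markers ran from 237 to 555 TPM in homozygotes and from 612 to 1022 TPM in wild types. Alignments ran from 30.6 to 33.8 M in homozygotes and from 21.8 to 28.4 M in wild types. Their part in the vascular differences was not tested.

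At 17 months the order of the genotypes was another one, and the vascular transcripts were highest in homozygotes, lowest in heterozygotes and intermediate in wild types. Cldn5 stood at 131.2, 123.3, 124.9 and 89.8 TPM in homozygotes, at 62.9, 41.4, 29.7 and 45.4 TPM in heterozygotes, and at 62.3, 67.7, 72.0 and 73.4 TPM in wild types. Ly6c1 stood at 206.2, 189.4, 235.6 and 171.1 TPM in homozygotes, at 95.0, 74.9, 54.6 and 70.9 TPM in heterozygotes, and at 103.7, 116.6, 115.5 and 155.5 TPM in wild types. In both genes the homozygotes lay above every other animal. Esam stood at 24.6, 24.8, 27.0 and 18.8 TPM in homozygotes, at 11.2, 10.4, 6.41 and 8.16 TPM in heterozygotes, and at 14.7, 13.1, 18.2 and 17.0 TPM in wild types. For Esam the 3 genotypes did not overlap at all.

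Among the mural members, Vtn stood at 27.6, 36.3, 28.9 and 31.1 TPM in homozygotes, at 16.3, 10.8, 16.4 and 10.6 TPM in heterozygotes, and at 12.3, 16.1, 17.6 and 17.5 TPM in wild types. Pdgfrb stood at 2.91, 3.36, 3.05 and 2.96 TPM in homozygotes, at 1.70, 1.52, 1.56 and 1.30 TPM in heterozygotes, and at 1.82, 1.74, 1.75 and 1.61 TPM in wild types. In both of these the homozygotes stood alone, while heterozygotes and wild types overlapped. Rgs5 stood at 13.1, 19.5, 11.01 and 13.5 TPM in homozygotes, at 8.07, 6.28, 7.59 and 6.89 TPM in heterozygotes, and at 7.96, 13.4, 11.7 and 12.8 TPM in wild types. Wild-type Rgs5 reached into the homozygous range, unlike Vtn and Pdgfrb.

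Set against heterozygotes at 17 months, 7 of the 8 members that passed the filter rose in homozygotes (limma, Benjamini-Hochberg over 11792 genes), where 1.69% of all genes were called higher. All 8 had homozygotes wholly above heterozygotes, against 6.68% of all genes. The members were chosen with earlier results of these data known, and co-variation was part of that choice. These counts, and those of the other contrasts at 17 months, are therefore a description. The largest differences on the log2(TPM + 1) scale were endothelial, with 1.45 ± 0.165 for Ly6c1 (SE, limma adjusted p = 0.00134) and 1.40 ± 0.185 for Cldn5 (adjusted p = 0.00220). Esam followed with 1.32 ± 0.167 (adjusted p = 0.00172) and Vtn with 1.16 ± 0.165 (adjusted p = 0.00279). Rgs5 differed by 0.87 ± 0.178 (adjusted p = 0.0244), Pdgfrb by 0.69 ± 0.113 (adjusted p = 0.00613) and Pecam1 by 0.68 ± 0.143 (adjusted p = 0.0282). Flt1, with 0.76 ± 0.186, did not pass the test (adjusted p = 0.0617). It averaged 22.6 ± 4.62 TPM in homozygotes and 13.01 ± 3.16 TPM in heterozygotes (SD, n = 4 each), and its lowest homozygote, at 15.7306 TPM, barely cleared its highest heterozygote, at 15.7026 TPM.

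Sex went partly with genotype in this contrast, since the 4 heterozygotes were female and 3 of the 4 homozygotes male. With a sex term in the model, Ly6c1 and Esam stayed called and the count was 2 of 8. Over all genes, 42 were then called higher in place of 199. The female homozygote, HOM-7901, had Cldn5 at 89.8 TPM and Vtn at 31.1 TPM. It lay above all 4 heterozygous females in each of the 8 members, with Flt1 at 15.7306 TPM against 15.7026 TPM in HET-7794. That place follows from the separation of all homozygotes from all heterozygotes, so it does not show what part sex had. Homozygous libraries were also deeper, with 40.7 to 46.4 M alignments against 30.6 to 37.1 M in heterozygotes, and the part of depth was not tested. The RNA input given in the labels was lower in heterozygotes, and only the highest heterozygous and the lowest homozygous input crossed. Its part was not tested either.

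Against wild types at 17 months, 2 of the 8 members rose in homozygotes, where 0.466% of all genes were called higher and 18.6% had an unadjusted p under 0.05. Both were mural. Vtn differed by 0.93 ± 0.165 (SE, limma adjusted p = 0.0440), with a mean of 31.0 ± 3.84 TPM in homozygotes and 15.8 ± 2.50 TPM in wild types (SD, n = 4 each), and Pdgfrb by 0.57 ± 0.113 (limma adjusted p = 0.0459), with 3.07 ± 0.204 and 1.73 ± 0.0878 TPM in the same groups. Cldn5 differed by 0.75 ± 0.185 (adjusted p = 0.0726), Ly6c1 by 0.71 ± 0.165 (adjusted p = 0.0642) and Esam by 0.56 ± 0.167 (adjusted p = 0.108), none of which passed. Homozygotes lay wholly above wild types for Cldn5, Ly6c1, Esam, Vtn and Pdgfrb, which is 5 of the 8, against 9.5% of all genes. Pecam1 (0.19 ± 0.143), Flt1 (0.37 ± 0.186) and Rgs5 (0.29 ± 0.178) overlapped between these groups. The count of members changed with single libraries, as did that of all genes. It was 0 without HOM-7893, HOM-7899, HOM-7901, WT-7782, WT-7783 or WT-7943, each left out in turn. In those fits 0 of all genes were called higher, or 1 without HOM-7901, in place of 55. The count was 1 without HET-7791 and 3 without HET-7796, with 27 and 267 of all genes called higher. The differences themselves ran from 0.82 to 0.98 for Vtn and from 0.54 to 0.59 for Pdgfrb with an animal left out. The count was 0 with a sex term, where 3 of all genes were called higher, and 5 in the RPKM tables, where 6.4% were.

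Heterozygotes stood below wild types at 17 months in all 8 members, from -0.76 ± 0.167 (SE) for Esam and -0.74 ± 0.165 for Ly6c1 to -0.12 ± 0.113 for Pdgfrb. Limma called 0 of the 8, with 5 at an unadjusted p under 0.05, where 0.237% of all genes were called lower and 9.24% had such an unadjusted p. The adjusted p of Esam and Ly6c1 was 0.0934 in limma. Heterozygotes lay wholly below wild types for Ly6c1, Esam and Pecam1, against 3.25% of all genes. Astrocyte markers were negative in 12 of 13 in this contrast (median -0.66), with 0 called and 8 at an unadjusted p under 0.05, and oligodendrocyte markers in 9 of 9 (median -1.59), with 4 called lower, and their part was not tested. Pecam1 averaged 21.5 ± 3.23 TPM in heterozygotes and 30.4 ± 1.21 TPM in wild types (SD, n = 4 each). The homozygous against wild-type and the heterozygous against wild-type contrasts share the wild-type animals, and both contrasts of homozygotes share the homozygotes.

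**Figure D2:**
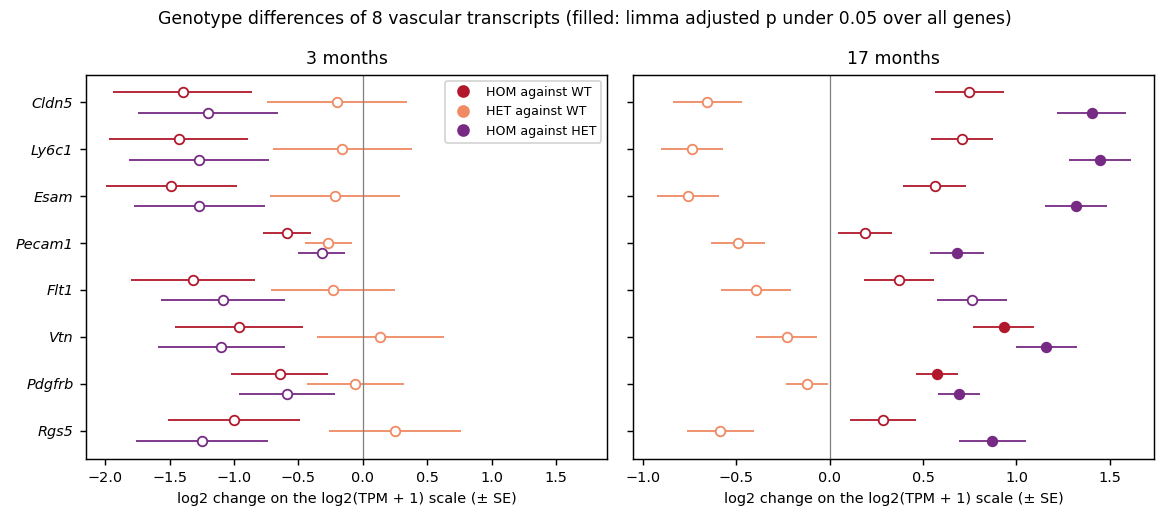
Points give the log2 difference on the log2(TPM + 1) scale for 8 transcripts and whiskers the SE, with filled points for a limma adjusted p under 0.05 over all genes. The homozygous points of 3 months are a description, and 9 points are filled at 17 months, 7 in homozygotes against heterozygotes and 2 in homozygotes against wild types.

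The ages stand in separate tables, so levels at 3 and 17 months were not tested against each other, but the genotype differences were. The homozygous minus wild-type difference at 17 months less that at 3 months was positive for all 8 members, from 0.78 ± 0.243 (SE) for Pecam1 to 2.15 ± 0.607 for Cldn5. The endothelial median was 2.05 and the mural median 1.29, beside 0.16 over all 11436 genes. These values contain the 3-month contrast from which the genes were taken up and are given as a description. The corresponding heterozygous difference was negative for all 8 members, from -0.84 ± 0.574 (Rgs5) to -0.06 ± 0.405 (Pdgfrb), with 0 of the 8 called, 0 at an unadjusted p under 0.05, 0.49% of all genes called lower and 14.4% at such an unadjusted p. Without HET-8304 its mural median was 0.21 in place of -0.37.

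Endothelial and mural transcripts were then set side by side. For each animal, log2(TPM + 1) was averaged over the 5 endothelial and over the 3 mural members that passed the filter. The endothelial average was 3.79 ± 0.307 in homozygotes, 4.82 ± 1.05 in heterozygotes and 5.03 ± 0.638 in wild types at 3 months (SD, n = 4 each), and 5.77 ± 0.244, 4.65 ± 0.260 and 5.25 ± 0.0845 in the same groups at 17 months. The mural average was 2.13 ± 0.217, 3.11 ± 1.15 and 3.00 ± 0.548 at 3 months, and 3.64 ± 0.181, 2.73 ± 0.177 and 3.04 ± 0.164 at 17 months, in homozygotes, heterozygotes and wild types. Both averages ranked the homozygotes lowest at 3 months and highest at 17 months. Their difference, endothelial minus mural, overlapped between genotypes at both ages, with 1.35 to 2.14 in homozygotes, 1.32 to 2.32 in heterozygotes and 1.88 to 2.13 in wild types at 3 months, and 1.79 to 2.44, 1.52 to 2.20 and 2.06 to 2.38 in those groups at 17 months.

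Across the 12 animals of 3 months the endothelial and mural averages had a Pearson r of 0.92 and a Spearman rho of 0.91. The r was 0.90 without the 2 animals farthest from the median, and 0.90 after the genotype means were taken out. At 17 months r was 0.85, rho 0.86 and r without the 2 farthest animals 0.86, but r was 0.10 within genotypes. The value within genotypes at 3 months did not come from the homozygotes, among which HOM-8282 had the highest endothelial average (4.05) and the lowest mural average (1.91). Single pairs of members gave a median r of 0.98 among endothelial members, 0.90 between endothelial and mural members and 0.97 among mural members at 3 months. At 17 months the medians were 0.88, 0.79 and 0.83, and within genotypes 0.64, 0.09 and 0.48. Co-variation across libraries was part of the rule that chose the members, so correlations among them are given as a description. Points in these correlations share the scaling of each library to a fixed total, and genes are not independent replicates.

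**Figure D3:**
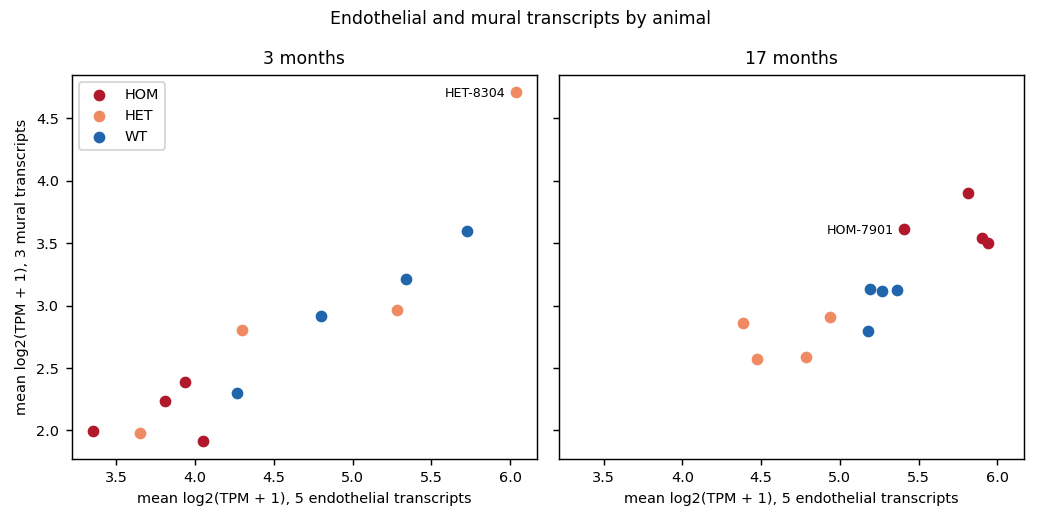
Each point is an animal, placed by its mean log2(TPM + 1) over 5 endothelial transcripts (horizontal) and 3 mural transcripts (vertical). At 3 months the animals run from the homozygotes at lower left to HET-8304 at upper right, and at 17 months they separate by genotype with the homozygotes at upper right.

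Averages of other cell type markers were compared in the same way. At 3 months the mural average had r = 0.95 with choroid plexus and ependyma markers and 0.83 with astrocyte markers, and the endothelial average 0.81 and 0.75. Without the 2 farthest animals, HET-8304 and WT-8325, these were 0.85 and 0.74 for the mural average, and 0.64 and 0.70 for the endothelial average. Within genotypes, with all 12 animals, they were 0.93 and 0.80 for the mural average, and 0.71 and 0.69 for the endothelial average. At 17 months the mural average had r = 0.53 and 0.38 with those lists, and the endothelial average 0.26 and 0.48. Within genotypes at 17 months they were 0.08 and -0.19 for the mural average, and -0.56 and -0.13 for the endothelial average. With homeostatic microglia markers, r was -0.29 for the endothelial and -0.44 for the mural average at 3 months. The endothelial average had r = -0.65 with the number of alignments at 3 months and 0.49 at 17 months. For the mural average these values were -0.58 and 0.69. Within genotypes, r with alignments was -0.30 at 3 months and 0.26 at 17 months for the endothelial average. For the mural average it was -0.40 and 0.62. Homozygous libraries were the deepest at both ages, so depth and genotype cannot be told apart between the groups.

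The gene with the profile most like the endothelial members at 3 months was Col4a2 (r = 0.996 over 12 animals), a chain of basement membrane collagen, followed by Tek, the angiopoietin receptor, and Nos3, the endothelial nitric oxide synthase. Epas1 and Ltbp4 came next. At 17 months Podxl, a sialomucin of the endothelial surface, was first (r = 0.996), followed by Spock2, Epas1, Adgrf5 and Vwa1. Epas1, the hypoxia-inducible factor HIF-2 alpha, was among the 5 at both ages. The genes most like the mural members were Myl9, a myosin light chain of smooth muscle (r = 0.983), Parva, Npdc1, Mfrp and Cgnl1 at 3 months. At 17 months they were Axin2, a target of Wnt signalling (r = 0.968), Uaca, St6galnac2, Id3 and Slco1c1, a thyroid hormone transporter of the blood-brain barrier.

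Ly6c1 shares sequence with Ly6c2, a marker of inflammatory monocytes, and both lie on chromosome 15. Of the 770 distinct 75-base stretches of the longest protein-coding Ly6c1 transcript, 179 (23.2%) also occur in a transcript of Ly6c2 or Ly6a, and 164 of them in Ly6c2. Reads of 75 bases from those stretches cannot be assigned by sequence alone. Ly6c1 had r = 0.99 with Cldn5 at 3 months and 0.97 at 17 months, against -0.16 and 0.32 with Ly6c2. Ly6c2 stood at 56.0, 34.6, 32.4 and 20.0 TPM in homozygotes, at 10.52, 13.4, 34.7 and 30.7 TPM in heterozygotes, and at 22.7, 16.9, 13.2 and 7.88 TPM in wild types at 3 months, so it was not lowest in homozygotes as Ly6c1 was. At 17 months it stood at 68.3, 36.8, 157.8 and 36.9 TPM in homozygotes, at 90.1, 13.9, 22.3 and 86.8 TPM in heterozygotes, and at 7.82, 28.5, 23.5 and 11.4 TPM in wild types. There its homozygotes lay above the wild types, as those of Ly6c1 did, with a difference of 1.91 ± 0.630 (SE, limma adjusted p = 0.133). Within genotypes r of Ly6c1 with Ly6c2 was 0.38 at 3 months and 0.47 at 17 months. For Cldn5 with Ly6c2 it was 0.46 and 0.59 within genotypes, and -0.11 and 0.40 over the 12 animals of each age. Cldn5, Esam, Pecam1, Flt1, Vtn, Pdgfrb and Rgs5 had 0 such stretches in common with another gene.

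Slco1a4, an organic anion transporter of the blood-brain barrier, had discordant values in the deposited tables. In the TPM tables it was listed at 0 in 4 of 12 animals at 3 months and 6 of 12 at 17 months, with means of 0.511 and 0.572 TPM. In the RPKM tables it was above 0 in all animals, from 2.06 to 16.8 RPKM at 3 months and from 4.22 to 12.2 RPKM at 17 months. The correlation of TPM with RPKM was 0.60 and -0.00066 for Slco1a4, and from 0.966 to 0.999 for the other 8 members. By RPKM it behaved like Cldn5, with 3.26, 2.06, 3.30 and 2.92 RPKM in homozygotes, 10.1, 2.33, 16.8 and 4.08 RPKM in heterozygotes, and 9.28, 5.04, 12.4 and 4.43 RPKM in wild types at 3 months. At 17 months it stood at 10.7, 12.2, 9.86 and 11.3 RPKM in homozygotes, 6.40, 5.12, 4.22 and 6.21 RPKM in heterozygotes, and 5.41, 8.48, 8.26 and 11.3 RPKM in wild types. The homozygous minus heterozygous difference was 0.90 ± 0.168 on the log2(RPKM + 1) scale (SE, limma adjusted p = 0.0114), and in that table all 9 members were called higher, against 2.35% of 11173 genes. Of its 75-base stretches 1.76% recur in Gm5724, Gm6614, Slco1a1, Slco1a5 or Slco1a6.

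**Figure D4:**
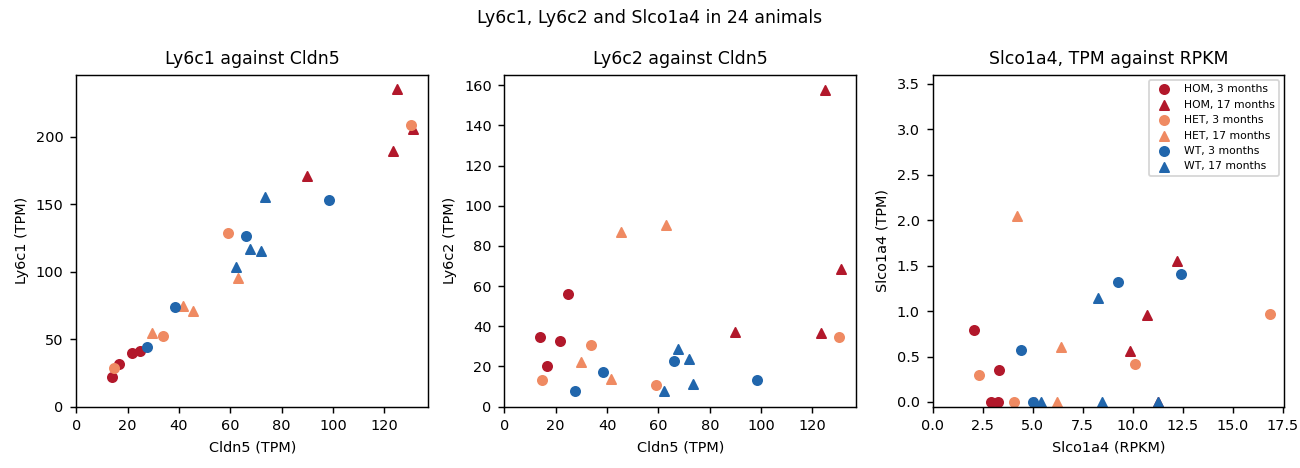
The left and middle panels plot Ly6c1 and Ly6c2 against Cldn5 in TPM for 24 animals, and the right panel plots Slco1a4 in TPM against RPKM. Ly6c1 rises with Cldn5 along 1 line and Ly6c2 does not, and 10 animals lie at 0 TPM of Slco1a4 while all have RPKM above 2.

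The levels of the members could be ordered per length of transcript. In wild types at 17 months Ly6c1 was first (123 ± 22.6 TPM), then Cldn5 (68.9 ± 4.98), Pecam1 (30.4 ± 1.21), Flt1 (17.0 ± 1.76), Vtn (15.8 ± 2.50), Esam (15.8 ± 2.29), Rgs5 (11.5 ± 2.43) and Pdgfrb (1.73 ± 0.0878, SD, n = 4 each). Flt1 overlapped Vtn, Vtn overlapped Esam and Esam overlapped Rgs5, while Ly6c1, Cldn5, Pecam1 and Pdgfrb stood apart. For comparison, Cx3cr1 averaged 2299 ± 318 TPM in the same animals.

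Further vascular genes were counted at 17 months in homozygotes against heterozygotes, where 1.69% of all genes were called higher. Of 23 other endothelial genes tested 18 rose and 0 fell (median 1.11, beside 0.07 over all genes). They included Emcn, an endothelial sialomucin (1.21, limma adjusted p = 0.000420), Robo4 (1.202), which stabilises vessels, and Sox18 (1.48), an endothelial transcription factor. Their most abundant member, Cd34, did not pass the test (-0.21, adjusted p = 0.290), and Ly6a, the next, rose by 1.11. Of 13 barrier transporters 6 rose, among them Slco1c1 (1.04), Mfsd2a (1.28), which carries lipids of omega-3 fatty acids, and Slc22a8 (1.15). Slc2a1, the glucose transporter of the barrier, differed by 0.64 and was called as well. Of 9 junction proteins 2 rose, Lsr (1.03) and Cdh5 (0.82), which encodes VE-cadherin. The abundant junction genes F11r (-0.04) and Tjp1 (-0.03) did not pass. All lists were fitted without a sex term. With such a term, 42 of all 11792 genes were called higher in this contrast, in place of 199.

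Of 10 tested genes of VEGF, angiopoietin and PDGF signalling, 2 rose, the receptors Tie1 (1.17) and Tek (0.77), which like Cdh5 are also counted among the other endothelial genes, while Pdgfb, the ligand of the receptor on mural cells, had 0.10 and Vegfb 0.26 without passing. Of 13 other mural genes 4 rose, namely Myl9 (1.16), Ndufa4l2 (0.96), Acta2 (1.03) and Higd1b (0.64). Of 9 basement membrane genes 4 rose, including Col4a2 (1.10), Lama5 (0.81) and Col4a1 (0.92), and the abundant Sparc (0.00) did not. The share of all genes called higher in this contrast was 1.69%. Astrocyte markers gave 0 of 13 called with 13 positive (median 0.68), and choroid plexus markers 0 of 7 called with 7 positive (median 0.64), with 7 and 4 at an unadjusted p under 0.05, where 1529 of 11792 genes had one. Their summed levels ran from 331 to 606 TPM in homozygotes and from 238 to 329 TPM in heterozygotes for astrocytes, and from 1535 to 4372 TPM and from 983 to 1400 TPM for choroid plexus, and their part in the vascular differences was not tested.

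Against wild types at 17 months, fewer of these genes passed. With a sex term, 3 of all 11792 genes were called higher in this contrast, in place of 55. Emcn (0.74), Robo4 (0.75) and Egfl7 (0.88) rose among 23 other endothelial genes, against 0.466% of all genes, while in RPKM 13 rose and 1 fell of 22, against 6.4% of genes called higher. Slco1c1 (0.61) and Slc2a1 (0.51) rose among 13 transporters, Hspg2 (0.78) and Lama5 (0.63) among 9 basement membrane genes, and Lsr (0.60) among 9 junction proteins. Other mural genes had 0 of 13 called with 13 positive and 7 at an unadjusted p under 0.05. Astrocyte markers had a median of -0.10, with 6 of 13 positive and 0 at an unadjusted p under 0.05, while choroid plexus markers were positive in 7 of 7, with 7 at an unadjusted p under 0.05 (median 1.24) and Ccdc153, a ciliary gene, called (1.59). Neutrophil markers were positive in 10 of 10 (median 1.85) and monocyte markers in 7 of 7 (median 1.35), with 0 called in each and 5 and 4 at an unadjusted p under 0.05. Oligodendrocyte markers were negative in 9 of 9 (median -1.31), with 1 called, and homeostatic microglia markers in 11 of 12 (median -0.21), with Gpr34 called lower (-0.83). The part of these other cells in the vascular differences was not tested. At 3 months, homozygotes against wild types had negative differences in 22 of 22 other endothelial genes (median -0.9997), 13 of 13 transporters (median -0.66) and 9 of 11 other mural genes (median -0.68), given as a description like those of the members. In heterozygotes against wild types at 17 months, 22 of 23 other endothelial genes had negative differences (median -0.47), with 0 called and 16 at an unadjusted p under 0.05.

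**Figure D5:**
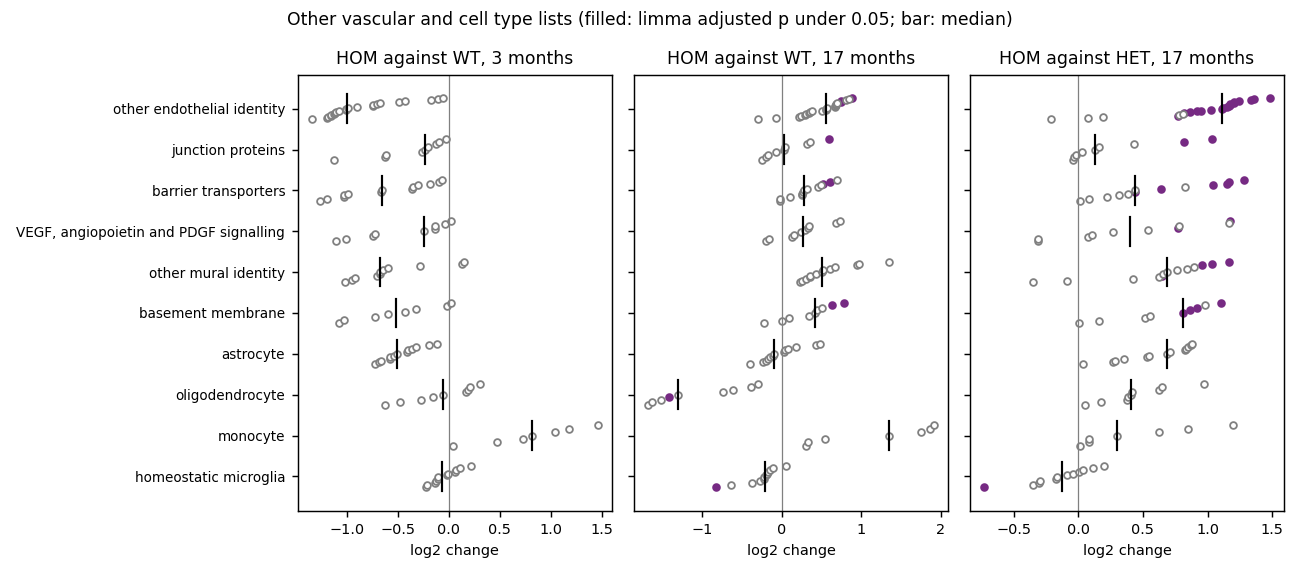
Points give the log2 difference of the genes of each list, on the log2(TPM + 1) scale, with filled points for a limma adjusted p under 0.05 and a bar at the median. In homozygotes against heterozygotes at 17 months, 18 of 23 other endothelial genes are filled and 0 of 13 astrocyte genes are, in the fit without a sex term. Over all genes, 1.69% were called higher there.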

How the data were processed

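Bulk RNA-seq libraries of 24 animals were analysed. For each age the authors deposited a table of TPM and a table of RPKM, and the number of alignments per library. Stranded polyadenylated libraries were read from 1 end over 75 bases, per the labels' protocols. The submitters' processing notes name mm10, DESeq2, TopHat2 2.1.1, Salmon 0.8.2 and Partek 7.17.0918, and tie no tool to a table. Without counts in the tables, count models could not be applied and depth enters only as alignments. The RPKM headers tie animal numbers to genotypes, and "hemi" in the older animals was taken as heterozygous.

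Values were used as log2(TPM + 1). Genes averaging 1 TPM or more in the 12 libraries of an age entered limma 3.58.1 (R 4.3.3), with 1 mean per genotype, a variance trend and two-sided tests. P-values were adjusted by Benjamini-Hochberg across the genes tested, and a call is an adjusted p under 0.05. The difference of genotype effects between ages used all 24 libraries. The procedure was tested on simulated data with independent noise for each gene, which does not cover genes that move together. Each animal counts as 1 replicate, since the headers number the animals. Sex was read from 4 Y-linked genes. The members and lists were chosen with earlier results of these data known. Named from the lists are up to 3 called genes in order of p and the 2 of highest mean TPM, and, by correlation of profiles, the 5 most similar genes. Slc2a1 and Higd1b against heterozygotes, and Flt1's 2 nearest animals, were named after their values were seen. Alternatives were a pseudocount of 0.1, no filter, a minimum of 5 TPM, the RPKM tables, median centring, quantile normalization, a sex term, array weights and each animal left out.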

Additional observations from a re-analysis of the deposited data

Results flagged for a closer look

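Of 54 groups of 4 animals examined, 5 held an animal farther from the rest than Dixon's 95% critical value allows, and chance gives about 1 in 20. Vtn at 3 months was 49.5 TPM in HET-8304, far above the other heterozygotes. Flt1 was low in HOM-8285 at 3 months (3.00 TPM) and in HOM-7901 at 17 months (15.7 TPM). Pecam1 at 17 months was 28.6 TPM in WT-7782, the shallowest library, against 30.8 to 31.1 TPM in the other wild types. Slco1a4 at 17 months was 1.14 TPM in WT-7785 and listed at 0 in the other wild types.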

How the results depend on the processing

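No paired analysis was possible because the tables number animals and the labels number replicates, with nothing to join them. Array weights, which give outlying libraries less weight, moved the counts most, calling 6 of 8 members in homozygotes against wild types and 6 against heterozygotes at 3 months, 6 in homozygotes against wild types and 4 in heterozygotes against wild types at 17 months, and 8 for the change of the homozygous effect with age. The same setting called 15.85%, 26.53%, 15.76%, 5.589% and 29.04% of all genes in those contrasts, in that order. Counts that involve homozygotes at 3 months come from the values that led to the choice of genes and support nothing. At 17 months the count of homozygotes against wild types was also 0 with a pseudocount of 0.1, where 0.1611% of all genes were called in either direction. It was 1 without a filter (0.063% of all genes), 1 with a minimum of 5 TPM (0.6498%), 5 in the RPKM tables (8.342%) and 0 with a sex term (0.0424%). The main setting called 0.7123% there. With an animal left out the count was 0 to 3, with 0.008483% to 3.115% of all genes called. Against heterozygotes it was 2 with a sex term, where 0.3816% of all genes were called in place of 1.857%. It was 5 to 7 with an animal left out, with 0.8843% to 2.085% of all genes called. The count for the homozygous effect over age was 0 to 6 with an animal left out, with 6 without HET-8304. That fit called 3.902% of all genes, in place of 0.2536%.

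The endothelial median of homozygotes against heterozygotes at 17 months was 1.04 without a filter, 1.10 in RPKM, 1.06 with a sex term and 1.58 with array weights. For heterozygotes against wild types at 17 months it was -0.88 with array weights, for the homozygous effect over age 1.67 in RPKM, and for the heterozygous effect over age -0.88 with array weights. With an animal left out it ran from -1.71 to -0.69 in homozygotes against heterozygotes at 3 months and from -0.96 to -0.073 for the heterozygous effect over age. In heterozygotes against wild types at 3 months it ran from -0.68 to 0.24.

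Sign changes were confined to heterozygotes against wild types, at 3 months and over age. At 3 months a sex term gave 0.19 for Cldn5, 0.37 for Ly6c1, 0.18 for Esam, 0.020 for Pecam1, 0.18 for Flt1 and 0.36 for Pdgfrb. Array weights gave 0.23 for Ly6c1, 0.070 for Esam, 0.10 for Flt1 and -0.21 for Vtn, and median centring gave 0.053 for Pdgfrb. With an animal left out, the values ran from -0.71 to 0.31 for Cldn5, from -0.62 to 0.33 for Ly6c1, from -0.68 to 0.24 for Esam, from -0.69 to 0.15 for Flt1, from -0.43 to 0.54 for Vtn, from -0.49 to 0.23 for Pdgfrb and from -0.34 to 0.69 for Rgs5. Over age, array weights gave 0.18 for Vtn and 0.17 for Pdgfrb, and leaving an animal out gave -0.96 to 0.054 for Cldn5, -0.55 to 0.30 for Flt1, -0.77 to 0.21 for Vtn and -0.35 to 0.37 for Pdgfrb. The causes of these shifts were not tested. Over all genes at 17 months, homozygotes against wild types had 55 called higher and 29 lower, which became 204 and 405 under median centring and 278 and 355 under quantile normalization. The values hold no counts, so the depth behind low genes such as Pdgfrb is unknown.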
